A study of Mus musculus with 12 samples.

Results

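The 8 genes described here act in the building and upkeep of organised lymphoid tissue: the chemokine Cxcl13 and its receptor Cxcr5, the chemokine Ccl19, the lymphotoxin subunits Lta and Ltb with their receptor Ltbr, and Glycam1 and Madcam1, which carry ligands of lymphocyte homing receptors on specialised vessels. They were read by symbol, as 8 of the 24478 symbols in the tables, and each was represented by the transcript with the most reads over the 12 libraries. The list was chosen by the measured levels of these genes in these same 4 groups. Their differences between groups are therefore descriptions, and the adjusted p-values printed beside them, from a fit over all genes, are not independent evidence. Of the 8 genes, 7 passed the filter on low counts, and Ccl19 had 0 reads in every library.

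Poly(A) RNA of mouse thymic tissue was sequenced in 12 libraries, in 4 groups of 3. The labels describe control tissue as T lymphocytes carrying endogenous MYC alone. The thymic lymphomas were labelled as T lymphocytes in which an ectopic MYC mutant, T58A in one group and S62A in the other, was the sole MYC. The remaining group was thymic mass from S62A animals with splenomegaly, an enlarged spleen; it was labelled as T and B lymphocytes holding endogenous MYC beside ectopic S62A, and is called splenomegaly mass below. In both mutants alanine stands in place of a residue whose phosphorylation governs the turnover of the MYC protein, and the disease is described as spontaneous. The promoter that drives the ectopic gene, the strain and the age of the animals are not stated in the labels. Every title ends in its own letter and number. Whether each library is a different animal is not stated, and the spread behind the p-values may in part be technical.

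Libraries held between 9577373 and 22437969 reads over genes. The titles carry a letter code, G, G and H in the 3 controls, H in all T58A lymphomas and I in all S62A libraries. Code and group therefore cannot be told apart when S62A libraries, lymphomas or splenomegaly masses, are set against controls or against T58A lymphomas. The comparison of splenomegaly masses with S62A lymphomas lies wholly within code I. Summed markers of thymic epithelium (9 genes) stood at 1670 to 1816 CPM (reads scaled to the depth of the library, the measure of level used throughout) in controls and at 198 CPM or lower in every other library. Summed pan T cell markers (12 genes) stood at 9284 to 9394 CPM in controls, 3428 to 4639 in T58A lymphomas, 2854 to 4568 in S62A lymphomas and 1023 to 1131 in splenomegaly masses. Summed B cell markers (14 genes) stood at 3329 to 3929 CPM in splenomegaly masses and at 617 CPM or lower elsewhere. Because whole tissue was sequenced, fewer cells of a type and less RNA per cell cannot be told apart.

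In lymph nodes, spleen and gut, lymphocytes make lymphotoxin, a complex of the Lta and Ltb proteins, and stromal cells receive it through Ltbr. The receptor signals through the alternative NF-kB pathway and sustains the stroma that makes Cxcl13 and the vessels called high endothelial venules. Cxcl13 draws B cells and follicular helper T cells, which carry Cxcr5, into follicles, and Ccl19 draws T cells and dendritic cells, which carry Ccr7. Glycam1 and Madcam1 mark high endothelium: the first is a sulphated mucin of the venule wall, and the second is the ligand of the integrin formed by the products of Itga4 and Itgb7. In mice, Glycam1 is also made by the mammary gland in lactation.

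The 250 bases before the transcript start of 4 of these genes are shown here because Cxcl13, Glycam1 and Madcam1 are known targets of lymphotoxin signals in mice and Ltb encodes the ligand. They come from RefSeq on GRCm38.p6, a later build than the mm9 of the read tables, and 7 of the 8 symbols, all but Cxcr5, matched an entry. Capitals mark matches to GGGNNNNNCC, the loose form of the NF-kB site, on either strand, with overlapping matches merged; 45.8% of 32851 promoter windows of this length hold such a match. The windows are chr5:95956689-95956938 on the plus strand (Cxcl13), chr15:103565082-103565331 on the minus strand (Glycam1), chr10:79664309-79664558 on the plus strand (Madcam1) and chr17:35194257-35194506 on the plus strand (Ltb).
Cxcl13: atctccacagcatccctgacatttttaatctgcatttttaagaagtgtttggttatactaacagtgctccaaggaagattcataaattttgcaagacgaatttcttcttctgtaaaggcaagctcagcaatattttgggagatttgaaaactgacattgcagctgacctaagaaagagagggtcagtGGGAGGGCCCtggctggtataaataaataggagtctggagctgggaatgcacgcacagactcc
Glycam1: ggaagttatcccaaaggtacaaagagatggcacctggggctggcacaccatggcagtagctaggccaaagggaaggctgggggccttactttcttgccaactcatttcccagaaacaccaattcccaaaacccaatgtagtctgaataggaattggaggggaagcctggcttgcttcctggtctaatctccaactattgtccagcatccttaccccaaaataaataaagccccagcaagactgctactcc
Madcam1: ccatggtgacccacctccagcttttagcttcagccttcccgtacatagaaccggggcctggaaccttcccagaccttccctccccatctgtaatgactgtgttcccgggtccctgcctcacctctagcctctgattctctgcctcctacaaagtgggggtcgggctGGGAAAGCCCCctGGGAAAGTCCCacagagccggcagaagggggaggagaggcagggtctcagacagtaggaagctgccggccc
Ltb: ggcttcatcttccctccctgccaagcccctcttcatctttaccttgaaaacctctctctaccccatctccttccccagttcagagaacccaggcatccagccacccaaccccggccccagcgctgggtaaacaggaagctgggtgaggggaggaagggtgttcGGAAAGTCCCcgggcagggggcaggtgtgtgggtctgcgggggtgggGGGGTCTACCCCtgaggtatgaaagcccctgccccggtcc
The Madcam1 window holds a pair of adjacent marked stretches, at 84 to 74 and 71 to 61 bases before the start. The Ltb window holds marked stretches at 87 to 78 and 40 to 29 bases before the start, and the Cxcl13 window holds 1 at 63 to 54 bases. The Cxcl13 window also holds the TATA box letters TATAAA at 46 to 41 bases before the start, which 2.63% of windows have in their last 50 bases on the sense strand. The Glycam1 window holds neither motif. These are matches of letters, and no factor was measured at them.

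Cxcl13, the ligand, was low in control thymus and high in every diseased tissue. The gene lies on chr5:96385958-96390087 (mm9, plus strand, NM_018866). It stood at 3.15, 2.59 and 2.12 CPM in controls, 306, 220.0 and 94.5 CPM in T58A lymphomas, 118, 100.3 and 36.3 CPM in S62A lymphomas, and 982, 701 and 360.3 CPM in splenomegaly masses. Every diseased library lay above every control, and every splenomegaly mass lay above every lymphoma, while the lymphoma groups overlapped. From 157 reads over the controls it came to 30298 over the splenomegaly masses. Against control, Cxcl13 rose by 8.02 ± 0.68 on the log2 scale (SE) in splenomegaly masses (edgeR's quasi-likelihood test, adjusted p = 7.44e-06), by 6.30 ± 0.63 in T58A lymphomas (adjusted p = 4.92e-05) and by 5.02 ± 0.60 in S62A lymphomas (adjusted p = 0.000105). These comparisons share the 3 controls.

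Splenomegaly masses held more Cxcl13 than S62A lymphomas by 3.002 ± 0.53 (adjusted p = 0.00072) and more than T58A lymphomas by 1.72 ± 0.50 (adjusted p = 0.0168). The second of these no longer passed without T58A lymphoma 3 (1.37, adjusted p = 0.0513) or without splenomegaly mass 1 (1.42, adjusted p = 0.0580). Between S62A and T58A lymphomas the difference was −1.28 ± 0.50 and did not pass (adjusted p = 0.16). With the libraries of title code H alone, 1 control against 3 T58A lymphomas, the rise was 6.61 (adjusted p = 0.0438).

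Summed macrophage markers (8 genes) were, like Cxcl13, lowest in controls and highest in splenomegaly masses, at 612 to 719 CPM in controls, 1808 to 2572 in T58A lymphomas, 1525 to 2199 in S62A lymphomas and 4304 to 7888 in splenomegaly masses. As a percent of that sum, Cxcl13 came to 0.347 to 0.470 in controls, 5.22 to 11.9 in T58A lymphomas, 2.30 to 7.77 in S62A lymphomas and 8.37 to 15.7 in splenomegaly masses. The ratio was thus higher in every diseased library than in every control. Against summed fibroblast markers (7 genes, 667 to 1169 CPM in splenomegaly masses and 249 to 299.8 in controls), Cxcl13 came to 0.854 to 1.23% in controls and 54.0 to 84.0% in splenomegaly masses. The lymphomas spread widely on this ratio, from 5.52 to 63.0% in T58A lymphomas, which overlapped the masses, and from 2.56 to 37.8% in S62A lymphomas. Against summed B cell markers the order of the diseased groups was the other way, at 10.8 to 27.5% in splenomegaly masses, 35.6 to 131.5% in T58A lymphomas and 44.4 to 68.8% in S62A lymphomas, with controls at 1.47 to 1.97%. The pairs of gene and marker list used here and below were set after the values were seen, and the part of these cells in the result was not tested.

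Cxcr5, the receptor of Cxcl13, was high only in the splenomegaly masses among the 4 groups. The gene lies on chr9:44319870-44334504 (mm9, minus strand, NM_007551). It stood at 3.66, 3.42 and 2.90 CPM in controls, 11.9, 15.5 and 2.82 CPM in T58A lymphomas, 3.82, 1.44 and 0.933 CPM in S62A lymphomas, and 93.4, 114 and 95.3 CPM in splenomegaly masses. All splenomegaly masses lay above all other libraries, T58A lymphoma 3 lay below every control, and S62A lymphoma 1 lay above every control. The receptor rose in splenomegaly masses by 4.92 ± 0.62 against control (adjusted p = 9.42e-05), by 5.60 ± 0.65 against S62A lymphomas (adjusted p = 4.93e-05; 6.41 without S62A lymphoma 1) and by 3.32 ± 0.57 against T58A lymphomas (adjusted p = 0.00089).

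In T58A lymphomas Cxcr5 rose by 1.60 ± 0.55 against control (adjusted p = 0.0419), a call lost in 5 of the 6 fits that left out a library, with adjusted p from 0.0923 to 0.152, and when only those 2 groups were fitted (adjusted p = 0.0655). In S62A lymphomas the difference from control was −0.68 ± 0.58 and did not pass (adjusted p = 0.367), and between the lymphoma groups it was −2.28 ± 0.58 (adjusted p = 0.0585), which passed without T58A lymphoma 3 (−2.72) or S62A lymphoma 1 (−3.09). Summed B cell markers, like Cxcr5, were far higher in splenomegaly masses than elsewhere, and they stood at 555 and 617 CPM in T58A lymphomas 1 and 2 and at 71.8 CPM in T58A lymphoma 3. In S62A lymphomas they did not follow the receptor. S62A lymphoma 2 held the highest sum of its group, 226 CPM against 172 and 63.8 CPM in S62A lymphomas 1 and 3, and lay above every control in that sum (145 to 160.0 CPM) but below every control in Cxcr5. As a percent of the summed B cell markers, Cxcr5 came to 2.004 to 2.32 in controls, 2.15 to 3.92 in T58A lymphomas, 0.637 to 2.22 in S62A lymphomas and 2.62 to 2.91 in splenomegaly masses. Between controls and splenomegaly masses, then, the receptor differed 30.3-fold in the fit, while these ratios lay near each other without overlap. B cells are known to carry this receptor, and the part of B cell number in the difference was not tested.

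**Figure D1:**
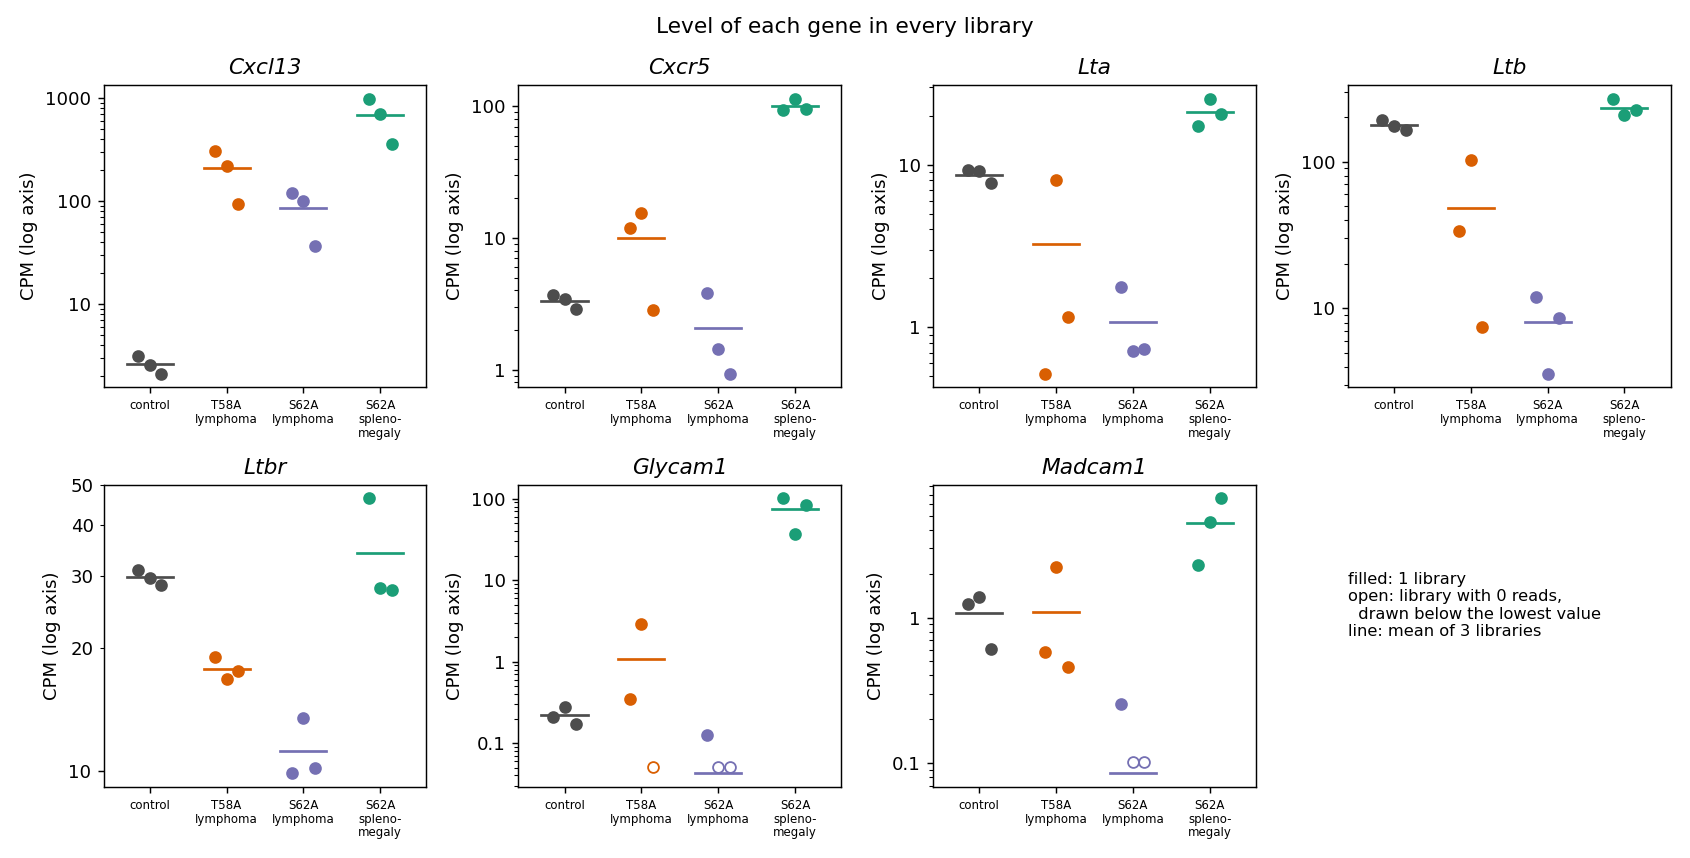
Level of 7 of the genes in each of the 12 libraries, in CPM on a log axis, with 1 point a library and a line at the mean of 3 libraries; open points are libraries with 0 reads, drawn below the lowest value. Cxcl13 sits between 94.5 and 306 CPM in T58A lymphomas against 2.12 to 3.15 CPM in controls, and Cxcr5 and Glycam1 are highest in the 3 splenomegaly masses.

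The lymphotoxin genes showed another order of groups, with S62A lymphomas lowest on average and no call between splenomegaly masses and controls in the fit over all 12 libraries. When only those 2 groups were fitted, Ltb and Lta were called higher in the masses and Ltbr was not. Ltb encodes the membrane-bound subunit and lies on chr17:35331452-35333250 (mm9, plus strand, NM_008518), with the microRNA gene Mir6973a inside it on the same strand. It stood at 191, 176 and 165 CPM in controls, 33.5, 103 and 7.48 CPM in T58A lymphomas, 12.0, 3.59 and 8.60 CPM in S62A lymphomas, and 268, 206 and 224 CPM in splenomegaly masses. Every lymphoma lay below every control, and every splenomegaly mass lay above every control, by a small margin. Ltb fell by 4.45 ± 0.77 in S62A lymphomas against control (adjusted p = 0.00098) and by 1.88 ± 0.68 in T58A lymphomas (adjusted p = 0.0490). The T58A call was lost in 5 of the 6 fits that left out a library, with adjusted p from 0.0519 to 0.136, with title code H alone (−1.78, adjusted p = 0.405) and when only those 2 groups were fitted (adjusted p = 0.0976). Without T58A lymphoma 2 the difference was −3.13 (adjusted p = 0.0034).

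In splenomegaly masses Ltb differed from control by 0.39 ± 0.65 and did not pass (adjusted p = 0.644; 95% interval −1.04 to 1.83), whereas the fit of those 2 groups alone gave 0.46 (adjusted p = 0.0135). Against S62A lymphomas it rose by 4.84 ± 0.78 (adjusted p = 0.0004) and against T58A lymphomas by 2.28 ± 0.69 (adjusted p = 0.0193), the latter lost without T58A lymphoma 1 (2.07, adjusted p = 0.0645) and at 3.56 without T58A lymphoma 2. Between the lymphoma groups the difference was −2.57 ± 0.71 (adjusted p = 0.0735), which passed without T58A lymphoma 3 (−3.08, adjusted p = 0.00979). As a percent of the summed pan T cell markers, Ltb came to 1.78 to 2.06 in controls, 0.161 to 2.73 in T58A lymphomas, 0.0786 to 0.301 in S62A lymphomas and 20.2 to 23.7 in splenomegaly masses. This ratio stood higher in every splenomegaly mass than in every other library. As a percent of the summed B cell markers the order turned, with Ltb at 114 to 119.6 in controls, 6.05 to 16.7 in T58A lymphomas, 1.59 to 13.5 in S62A lymphomas and 5.25 to 7.53 in splenomegaly masses. T cell markers stood far lower and B cell markers far higher in the masses than in controls. B cells and T cells are both known to make Ltb, and the part of either was not tested.

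Lta, the subunit that is also secreted alone, lies beside Ltb on chr17:35340110-35342296 (mm9, minus strand, NM_010735), with Mir6974 inside it on the same strand. It stood at 9.29, 9.15 and 7.67 CPM in controls, 0.520, 8.10 and 1.15 CPM in T58A lymphomas, 1.78, 0.718 and 0.734 CPM in S62A lymphomas, and 17.4, 25.4 and 20.6 CPM in splenomegaly masses. T58A lymphoma 2 lay among the controls, the other lymphomas lay below them and every splenomegaly mass lay above them. Lta fell by 2.997 ± 0.82 in S62A lymphomas against control (adjusted p = 0.0128). It differed by −1.41 ± 0.76 in T58A lymphomas (adjusted p = 0.166), or −3.37 without T58A lymphoma 2 (adjusted p = 0.00106).

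In splenomegaly masses Lta differed from control by 1.28 ± 0.74 and did not pass (adjusted p = 0.174; 95% interval −0.35 to 2.91), whereas the fit of those 2 groups alone gave 1.34 (adjusted p = 0.000661). It rose there by 4.28 ± 0.86 against S62A lymphomas (adjusted p = 0.00162) and by 2.69 ± 0.78 against T58A lymphomas (adjusted p = 0.0164), the latter lost without T58A lymphoma 3 (2.29, adjusted p = 0.0515) and at 4.69 without T58A lymphoma 2. Between the lymphoma groups the difference was −1.59 ± 0.80 (adjusted p = 0.261), and it turned to 0.36 without T58A lymphoma 2. Set against the summed B cell markers, Lta came in percent to 5.295 to 6.21 in controls, 0.0937 to 1.60 in T58A lymphomas, 0.318 to 1.15 in S62A lymphomas and 0.488 to 0.648 in splenomegaly masses, so that controls lay above every other library.

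Ltbr, the receptor on stromal and myeloid cells, was lower in both lymphoma groups than in control and splenomegaly tissue. It lies on chr6:125256589-125263888 (mm9, minus strand, NM_010736). It stood at 31.1, 29.8 and 28.5 CPM in controls, 19.0, 16.8 and 17.6 CPM in T58A lymphomas, 9.86, 13.5 and 10.1 CPM in S62A lymphomas, and 46.5, 28.1 and 27.7 CPM in splenomegaly masses. The order from S62A lymphoma through T58A lymphoma to control showed no overlap, and splenomegaly masses overlapped the controls.

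Ltbr fell by 1.42 ± 0.23 in S62A lymphomas (adjusted p = 0.00061) and by 0.74 ± 0.22 in T58A lymphomas (adjusted p = 0.0223) against control. The T58A call was lost without control 1 or 2 or without T58A lymphoma 2 or 3, with adjusted p from 0.0547 to 0.0706. Splenomegaly masses differed from control by 0.20 ± 0.22 (adjusted p = 0.484; 0.328 when only those 2 groups were fitted), or −0.052 without splenomegaly mass 1, so no direction can be given. They held more Ltbr than S62A lymphomas by 1.61 ± 0.23 (adjusted p = 0.000168) and more than T58A lymphomas by 0.94 ± 0.22 (adjusted p = 0.00558), and the difference between the lymphoma groups was −0.67 ± 0.22 (adjusted p = 0.11). Set against the summed fibroblast markers, Ltbr came in percent to 9.92 to 12.2 in controls, 1.03 to 3.91 in T58A lymphomas, 0.715 to 3.15 in S62A lymphomas and 3.30 to 4.15 in splenomegaly masses.

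**Figure D2:**
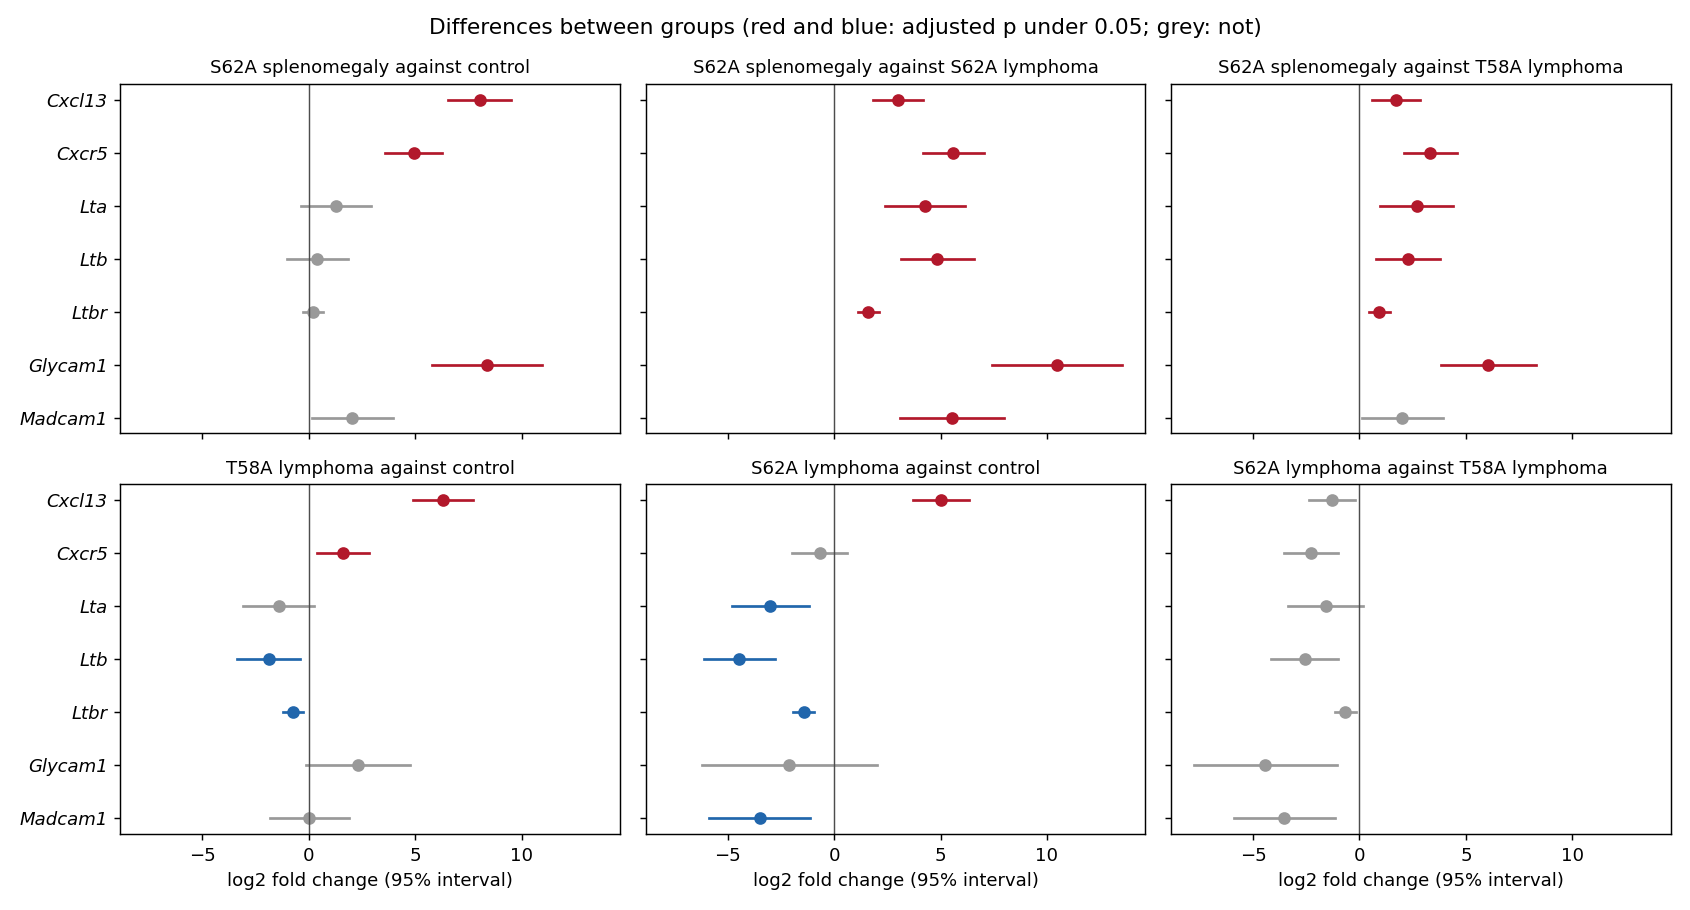
Log2 fold change of each gene in the 6 comparisons, with 95% intervals; the first group named is the numerator, and red and blue points passed the threshold upward and downward. All 7 genes lie to the right against S62A lymphoma, from 1.61 for Ltbr to 10.48 for Glycam1, while Lta, Ltb and Ltbr have intervals that include 0 when splenomegaly masses are set against control.

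Glycam1, the mucin of high endothelium, was close to the limit of detection outside the splenomegaly masses. The gene lies on chr15:103393191-103395512 (mm9, minus strand, NM_008134), and its second transcript held the same reads. It had 4, 5 and 4 reads in controls, 6, 55 and 0 in T58A lymphomas, 2, 0 and 0 in S62A lymphomas, against 1901, 354 and 1206 in splenomegaly masses. The same libraries stood at 0.206, 0.275 and 0.173 CPM, at 0.346, 2.93 and 0 CPM, at 0.127, 0 and 0 CPM, and at 101, 37.2 and 84.6 CPM. Every splenomegaly mass lay above every other library, and T58A lymphoma 2 stood apart from its group. Only in splenomegaly masses did each library of a group reach 10 reads, so the gene passed the filter on low counts through that group.

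In splenomegaly masses Glycam1 rose by 8.38 ± 1.17 against control (adjusted p = 0.000193) and by 6.06 ± 1.01 against T58A lymphomas (adjusted p = 0.00078), or 8.73 without T58A lymphoma 2. Against the 2 reads of the S62A lymphomas the ratio of reads scaled to depth was 1813, with a 95% counting interval of 501 to 14970 that covers counting error only, and the fit gave 10.48 ± 1.40 (adjusted p = 0.00012). Between T58A lymphomas and controls the difference was 2.32 ± 1.12 and did not pass (adjusted p = 0.126), though it turned to −0.32 without T58A lymphoma 2 and passed at 2.89 without T58A lymphoma 3 (adjusted p = 0.0267). The fit of S62A lymphomas gave −2.10 ± 1.88 against control (adjusted p = 0.387) and −4.42 ± 1.53 against T58A lymphomas (adjusted p = 0.123; 0.041 without T58A lymphoma 3), both resting on those 2 reads, which S62A lymphoma 1 alone held.

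Summed endothelium markers (13 genes) were, like Glycam1, highest in splenomegaly masses, at 235 to 273 CPM in controls, 301 to 391 in T58A lymphomas, 207 to 294 in S62A lymphomas and 641 to 1106 in splenomegaly masses. Library by library the sum did not always follow the gene. T58A lymphoma 3, with 0 Glycam1 reads, held 301 CPM of these markers, above every control. Splenomegaly mass 3 held a lower sum than mass 2 (641 against 697 CPM) but more Glycam1 (84.6 against 37.2 CPM). As a percent of that sum, Glycam1 came to 0.0635 to 0.117 in controls, 0 to 0.750 in T58A lymphomas, 0 to 0.0615 in S62A lymphomas and 5.34 to 13.2 in splenomegaly masses. The ratio was thus higher in every splenomegaly mass than in every other library. Milk protein genes, the markers of the other tissue known to make Glycam1, summed to 0.318 to 1.75 CPM over 6 genes in splenomegaly masses and to 8.84 to 16.2 CPM in controls. Of these, Csn1s1, Csn1s2a and Wap had 0 reads in the splenomegaly masses, and Csn2, Csn3 and Lalba had 29, 4 and 3. In controls Csn2 alone averaged 12.1 CPM of a mean sum of 13.5 CPM. T58A lymphoma 2, with the most Glycam1 outside the masses, had a milk protein sum of 8.10 CPM. The sum was 1.27 and 1.32 CPM in T58A lymphomas 1 and 3, and 0.191 to 0.790 CPM in S62A lymphomas.

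Madcam1, the ligand of the gut homing integrin, was scarce in all groups. The gene lies on chr10:79127319-79131281 (mm9, plus strand, NM_013591). It had 24, 25 and 14 reads in controls, 10, 42 and 8 in T58A lymphomas, 4, 0 and 0 in S62A lymphomas, against 43, 43 and 94 in splenomegaly masses. These came to 1.24, 1.38 and 0.606 CPM, to 0.577, 2.24 and 0.460 CPM, to 0.254, 0 and 0 CPM, and to 2.28, 4.52 and 6.59 CPM. Every splenomegaly mass lay above every other library, the lowest by little over T58A lymphoma 2, and every S62A lymphoma lay below every other library.

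Madcam1 rose by 5.55 ± 1.11 in splenomegaly masses against S62A lymphomas (adjusted p = 0.00156) and fell by 3.50 ± 1.08 in S62A lymphomas against control (adjusted p = 0.0221). The fall was lost without control 1 or 2 or without S62A lymphoma 2 or 3, with adjusted p from 0.0525 to 0.0619, and without S62A lymphoma 1 no reads are left in that group. Against control the splenomegaly masses differed by 2.05 ± 0.87 (adjusted p = 0.0701) and against T58A lymphomas by 2.02 ± 0.87 (adjusted p = 0.078), neither past the threshold; the second passed without T58A lymphoma 2 (3.13, adjusted p = 0.0256). DESeq2 called both, with adjusted p = 0.0246 and 0.027, as did limma on log2 FPKM, with adjusted p = 0.0377 and 0.0241, and edgeR called the first when only those 2 groups were fitted (2.11, adjusted p = 0.00846). T58A lymphomas differed from control by 0.03 ± 0.85 (adjusted p = 0.978), and the lymphoma groups differed by −3.53 ± 1.08 (adjusted p = 0.0912). As a percent of the summed endothelium markers, Madcam1 came to 0.222 to 0.585 in controls, 0.153 to 0.573 in T58A lymphomas, 0 to 0.123 in S62A lymphomas and 0.206 to 1.03 in splenomegaly masses, of which all but the S62A lymphomas overlapped.

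**Figure D3:**
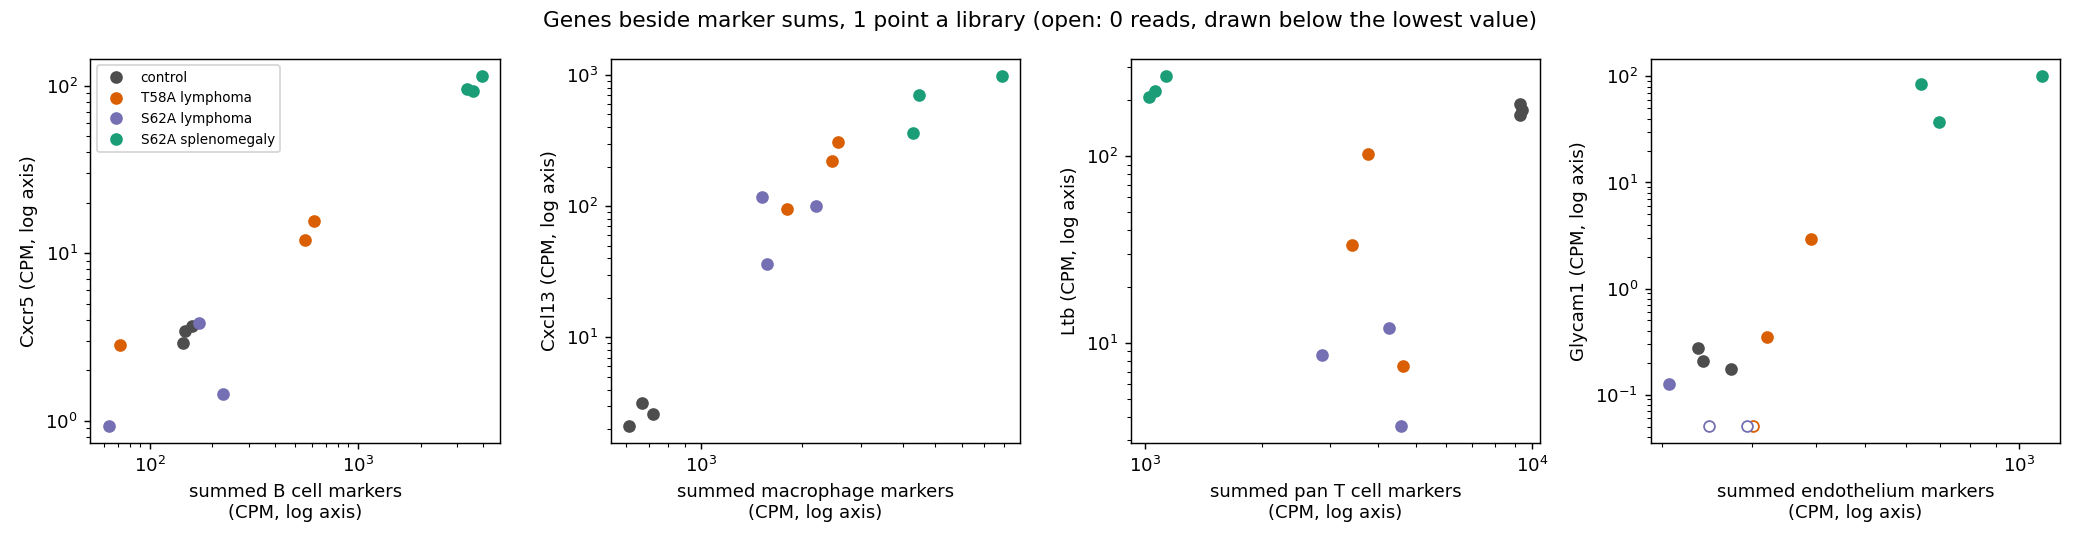
Level of 4 genes against the summed level of a marker list in the same library, both in CPM on log axes, with 1 point a library and open points for 0 reads. Splenomegaly masses stand at the upper right for Cxcr5, Cxcl13 and Glycam1, and at the upper left for Ltb, where summed pan T cell markers are 1023 to 1131 CPM.

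Ccl19 is annotated on chromosome 4 at a pair of places on mm9, chr4:42248504-42250497 on the plus strand and chr4:42768057-42770050 on the minus strand, under 1 accession (NM_011888). Both held 0 reads in every library, where a count of 0 allows up to 0.13 to 0.315 CPM. Of 452 accessions placed more than once in the tables, 87.2% had 0 reads in all libraries, against 11.5% of 34601 accessions placed once. Ccl21a, Ccl21b and Ccl21c, which encode the other ligand of Ccr7, also had 0 reads throughout. The handling of reads with several placements is not stated in the labels, so these zeros cannot be read as absence of the transcript. Ccr7 itself fell from 87.8 CPM in controls to 32.3 CPM in splenomegaly masses (log2 fold change −1.44 ± 0.35, adjusted p = 0.00588) and stood at 18.01 CPM in T58A and 6.28 CPM in S62A lymphomas.

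Counted together, 3 of the 7 genes tested rose and 0 fell in splenomegaly masses against control, where 22.9% of all 15606 genes tested rose and 26.3% fell. Against S62A lymphomas 7 rose and 0 fell, with 25.6% and 28.6% of all genes, and against T58A lymphomas 6 rose and 0 fell, with 20.5% and 24.6%. In T58A lymphomas against control 2 rose and 2 fell (18.8% and 17.4% of all genes), and in S62A lymphomas against control 1 rose and 4 fell (21.9% and 22.2%). Between S62A and T58A lymphomas edgeR's quasi-likelihood test called 0 of the 7 in either direction, against 0.859% up and 2.29% down among all genes. DESeq2 called 4 there, all lower in S62A, beside 617 up and 1137 down among all genes. At an unadjusted p under 0.05, the quasi-likelihood test counted 6 of the 7 there, beside 3654 of all 15606 genes tested. The median log2 fold change of the 7 genes was 2.05 against control, 4.84 against S62A lymphomas and 2.28 against T58A lymphomas in splenomegaly masses, beside −0.08, −0.07 and −0.07 over all genes. It was 0.03 in T58A and −2.10 in S62A lymphomas against control, beside 0.01 and 0.00, and −2.28 between the lymphoma groups, beside −0.01. Because the genes were chosen with these differences known, nothing is read from the counts and medians.

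On the scale of FPKM, which divides reads by transcript length and allows genes to be ranked, Cxcl13 was the most abundant of the genes in splenomegaly masses at 653 ± 294 (SD, n = 3). Ltb followed at 230 ± 27.3, Glycam1 at 148 ± 63.7 and Cxcr5 at 38.9 ± 5.43. Ltbr stood at 19.1 ± 5.69 and Lta at 16.7 ± 3.6, which overlapped, and Madcam1 at 3.52 ± 1.69. Except for Ltbr and Lta, neighbours in this order did not overlap. In controls the order was Ltb at 189 ± 15.1, Ltbr at 18.01 ± 0.916, Lta at 7.39 ± 0.828 and Cxcl13 at 2.71 ± 0.549, with Cxcr5, Madcam1 and Glycam1 at 1.38 ± 0.172, 0.914 ± 0.356 and 0.473 ± 0.117, of which the last pair overlapped. In T58A lymphomas Cxcl13 stood at 209 ± 105 and Ltb at 50.2 ± 51.9, which overlapped. In S62A lymphomas they stood at 82.1 ± 41.5 and 8.02 ± 4.16 without overlap.

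Among the other genes of high endothelium and lymphocyte homing, 17 of 22 tested rose and 1 fell in splenomegaly masses against control, with a median log2 fold change of 2.08, beside 22.9% up, 26.3% down and a median of −0.08 over all genes. Emcn, an endothelial sialomucin, rose by 2.72 ± 0.35 (adjusted p = 0.000101) and Spns2, the endothelial exporter of the lipid that guides lymphocyte exit, rose by 2.52 ± 0.36 (adjusted p = 0.000234). Icam2, an adhesion molecule of endothelium and lymphocytes, fell by 1.16 ± 0.23 (adjusted p = 0.00193). Enzymes that build the sugar chains of such mucins were picked out after their values were seen: Chst4 stood at 6.12 CPM in splenomegaly masses against 0.507 in controls (3.59 ± 1.18, adjusted p = 0.0266), Fut7 at 13.97 against 1.94 CPM (2.84 ± 0.81, adjusted p = 0.013) and Gcnt1 at 93.3 against 5.48 CPM (4.09 ± 0.76, adjusted p = 0.00115). Against S62A lymphomas 20 rose and 0 fell, beside 25.6% and 28.6% of all genes, with S1pr1, the lymphocyte receptor for that exit lipid, at 3.51 ± 0.29 (adjusted p = 7.08e-06) and Spns2 at 3.94 ± 0.39. All 13 endothelium markers rose in both of these comparisons. Not every gene of the homing list was highest in the masses. Chst2, another sugar chain enzyme, averaged 63.0 CPM there, 14.3 in controls, 99.4 in T58A and 111 in S62A lymphomas. Gcnt1 was highest in the masses, but its means of 17.8 CPM in T58A and 28.1 CPM in S62A lymphomas also lay above the control mean. Nkx2-3 had 0 reads in the masses and in the lymphomas, and 2 in controls.

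Homeostatic chemokines and their receptors went both ways against control, with 9 of 26 tested up and 9 down and a median of 1.07. The shares over all genes, 22.9% up and 26.3% down, were not far from these, so the counts are no result about the list. Cxcl16, a transmembrane chemokine of myeloid cells, rose by 1.97 ± 0.18 (adjusted p = 1.12e-05), and the interferon-induced chemokine gene Cxcl9 rose from 10.4 to 372 CPM (5.16 ± 0.56, adjusted p = 3.66e-05). Ccl25, the chemokine of thymic epithelium, fell from 668 to 1.99 CPM (−8.42 ± 0.33, adjusted p = 1.33e-07), and its receptor gene Ccr9 fell from 864 to 4.61 CPM (−7.55 ± 0.89, adjusted p = 6.4e-05). Markers of thymic epithelium fell in 7 of 9 genes in the same comparison. Against S62A lymphomas 14 rose and 4 fell (25.6% and 28.6% of all genes), among them Gpr183, an oxysterol receptor that positions B cells, up by 4.67 ± 0.50 (adjusted p = 3e-05), and Cxcr4, the receptor of Cxcl12, down by 1.29 ± 0.14 (adjusted p = 3.33e-05).

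The lymphotoxin and NF-kB list had 10 of 22 genes up and 0 down in splenomegaly masses against control, with a median of 0.74, and 17 up and 0 down against S62A lymphomas, where 22.9% and 25.6% of all genes rose and 26.3% and 28.6% fell. Tnfsf13b, which encodes the B cell survival factor BAFF, rose from 1.54 to 52.3 CPM (5.08 ± 0.44, adjusted p = 8.23e-06), and its receptor gene Tnfrsf13c rose from 2.16 to 143 CPM (6.04 ± 0.83, adjusted p = 0.000171). In S62A lymphomas 11 of the 22 genes fell and 1 rose against control, beside 22.2% down and 21.9% up over all genes. In T58A lymphomas 5 fell and 3 rose, close to the 17.4% down and 18.8% up over all genes. Nfkb2, Relb and Map3k14, the core of the alternative NF-kB pathway, were picked out after their values were seen. Nfkb2 rose in splenomegaly masses by 1.16 ± 0.36 (adjusted p = 0.0208), while Relb at 0.57 ± 0.35 (adjusted p = 0.2) and Map3k14 at 0.46 ± 0.24 (adjusted p = 0.135) did not pass. In S62A lymphomas these 3 genes fell by 1.33 ± 0.37, 1.66 ± 0.36 and 1.42 ± 0.25 against control (adjusted p = 0.0136, 0.00383 and 0.00105).

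Genes of follicular dendritic and reticular stroma had 13 of 19 up and 2 down against control, with a median of 1.86, beside 22.9% up, 26.3% down and a median of −0.08 over all genes. Clu, a secreted chaperone abundant in follicular dendritic cells, rose from 28.4 to 795 CPM (4.80 ± 0.37, adjusted p = 4.49e-06), and Mfge8, by which those cells aid the clearance of dead lymphocytes, rose from 77.0 to 555 CPM (2.85 ± 0.23, adjusted p = 5.18e-06). Sox9, a transcription factor of cartilage and other mesenchyme, fell by 2.82 ± 0.92 (adjusted p = 0.0247), and Il7, a survival factor for lymphocytes made by thymic and lymph node stroma, fell by 1.51 ± 0.50 (adjusted p = 0.0271). Against S62A lymphomas 15 rose and 0 fell, beside 25.6% and 28.6% of all genes. Several genes of this list are also made by macrophages or B cells, whose marker sums were higher in the same masses.

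**Figure D4:**
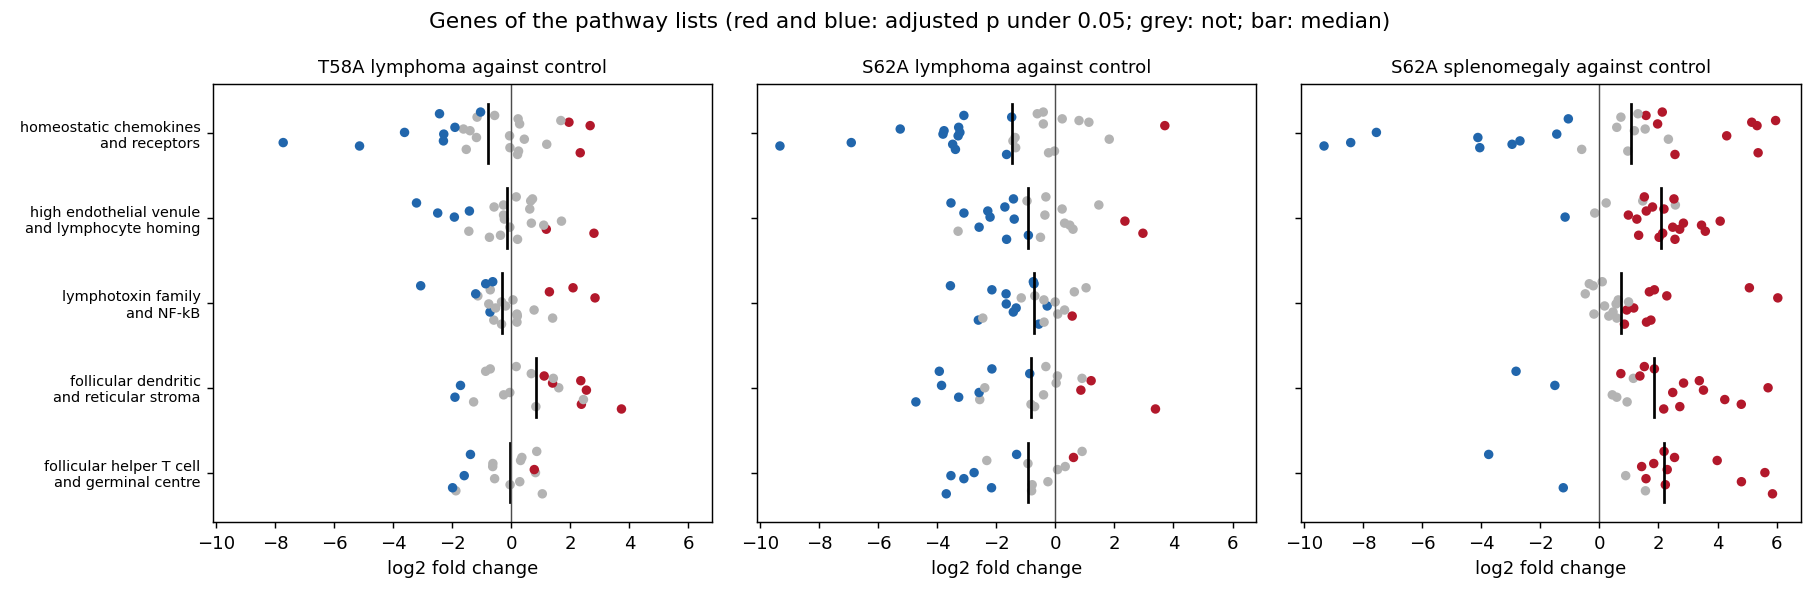
Log2 fold change of every tested gene of 5 gene lists against control, in T58A lymphomas, S62A lymphomas and splenomegaly masses; red and blue points passed the threshold and the bar marks the median of a list. In splenomegaly masses 17 of 22 homing genes lie to the right as red points, beside 22.9% of all genes. In S62A lymphomas 10 of the 22 are blue and 2 are red, beside 22.2% down and 21.9% up over all genes.

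The genes nearest in pattern were found by the root mean square, over the 12 libraries, of the difference between log2 CPM values centred on each gene's own mean. Nearest to Cxcl13 were C4b at 1.08, Klra2 at 1.09 and Ccl8 at 1.12, where the median over all genes was 3.06. Ccl8, a chemokine gene, rose from 4.69 ± 0.722 CPM in controls to 506 ± 210 CPM in splenomegaly masses, and C4b, a complement gene, from 4.37 ± 2.09 to 333 ± 80.9 CPM. Nearest to Cxcr5 were Ly6c2 at 0.23, Gm8369 at 0.41 and Rhobtb1 at 0.48 (median over all genes 2.40). Ly6c2 stood at 10.3 ± 1.09 CPM in controls, 30.1 ± 19.0 CPM in T58A lymphomas, 7.65 ± 3.90 CPM in S62A lymphomas and 377 ± 23.6 CPM in splenomegaly masses.

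Nearest to Glycam1 were Gm5535 at 1.02, Cacna1h at 1.11 and Il21 at 1.17 (median 3.69). Il21, a cytokine gene of follicular helper T cells, stood at 0.637 ± 0.123 CPM in controls and 31.4 ± 4.80 CPM in splenomegaly masses. Nearest to Madcam1 were H2-Eb2 at 0.47, Tnfsf10 at 0.53 and Erv3 at 0.57 (median 1.89). Slfn1 at 0.47, Gpr174 at 0.57 and Lsp1 at 0.58 were nearest to Ltb (median 2.27), and Ifi44 at 0.59, Mfsd2a at 0.64 and Nlrc5 at 0.64 were nearest to Lta (median 1.99). Agap1 at 0.18, Rarg at 0.21 and Dstyk at 0.22 were nearest to Ltbr (median 0.93). Among the 7 genes themselves, Lta lay nearest to Madcam1 at 0.93 and to Ltb at 0.94, and Cxcl13 lay farthest from Ltb at 3.84. The ligand Cxcl13 and its receptor Cxcr5 lay 2.23 apart. Libraries of a group share their tissue, so these distances describe 4 groups more than 12 independent points.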

How the data were processed

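Poly(A) RNA libraries were made with a strand-keeping kit and sequenced on an Illumina HiSeq instrument, per the labels' protocols. The authors deposited, per library, raw read counts of RefSeq transcripts, as whole numbers, and FPKM values, which the authors scaled to transcript length and library reads, per the file headers. The submitters' processing notes name bcl2fastq 2.20.0.422, Bowtie 1.0.0, DESeq2 and build mm9; how reads were counted, by strand or not, and what was done with reads of several placements is not stated, so overlapping genes are uncertain. File starts were read as counted from 0, since RefSeq lengths equalled end minus start in 6286 of 14260 symbols and end minus start plus 1 in 405, and are printed counted from 1.

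The tables hold 36141 transcripts of 24478 symbols. A gene is its transcript with the most reads over the 12 libraries. Counts were fitted in R 4.3.3 with edgeR 4.0.16: filterByExpr by group with a minimum count of 10 (15606 genes kept), TMM scaling, and glmQLFit and glmQLFTest with group as the only term over all 12 libraries, adjusted by Benjamini and Hochberg over all genes with a threshold of 0.05. The procedure was tested on simulated counts with known changes. Few genes were changed there, as many up as down and none with low mean counts. That test therefore does not cover genes near 0 reads or shifts over as many genes as seen here. CPM values use TMM-scaled library sizes; errors are SD of 3 libraries for levels and SE for log2 fold changes. Counting intervals are exact at 95%, and a count of 0 was given an upper limit of 3 reads; both cover counting error only.

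The genes, the gene lists and the tests were chosen with earlier results of these data known. Named besides the 8 genes were, per pathway list, the 2 risen and the 2 fallen genes with the smallest adjusted p in splenomegaly masses against control and against S62A lymphomas, the 3 genes nearest in pattern to each gene, and every milk protein gene; the result of 1 gene that this rule named is not reported here. Replicates were numbered in accession order, so the numbers pair no libraries. Alternatives were DESeq2 1.42.0, library size only, no filter on low counts, the transcript with the fewest reads, limma 3.58.1 on log2(FPKM + 0.1), the 2 groups compared alone, each library left out in turn, and title code H alone.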

Additional observations from a re-analysis of the deposited data

How the results depend on the processing

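Over 511 refits of a gene and comparison under the alternatives, 458 kept direction and side of the threshold, 19 came past it, 28 fell short of it and 6 turned in direction; of these, 252 left out 1 library. The turned values were not called in the fit over all libraries, and with a library left out they ranged from −0.052 (without splenomegaly mass 1) to 0.36 for Ltbr in splenomegaly masses against control, and in T58A lymphomas against control from −0.32 to 2.89 for Glycam1 and from −1.04 (both without T58A lymphoma 2) to 0.40 for Madcam1, the latter also −0.25 without control 3 and −0.23 with limma on log2 FPKM. Between the lymphoma groups Lta ranged from −2.16 to 0.36 (without T58A lymphoma 2). When only the 2 groups compared were fitted, calls over all genes rose in splenomegaly masses against control, from 3578 up and 4103 down to 4749 and 4756. In T58A lymphomas against control they rose in the same way, from 2938 up and 2708 down to 3472 and 3305. The count of the 7 genes called in splenomegaly masses against control went from 3 to 6 when only those 2 groups were fitted. In T58A lymphomas against control it went from 4 to 2 when only those groups were fitted, to 1 with title code H alone, and to between 1 and 3 with a library left out; with code H alone the genes called fell from 5646 to 418, with 1 control left. Between the lymphoma groups it went from 0 to 4 with DESeq2 and to between 0 and 3 with a library left out. There the genes called went from 492 to 1754 with DESeq2, to 0 when edgeR fitted only those groups (2194 at an unadjusted p under 0.05), and to between 149 and 814 with a library left out, the lowest without T58A lymphoma 2, 277 without S62A lymphoma 2 and the highest without T58A lymphoma 1. The cause of these shifts was not tested. Without TMM the median of all genes in splenomegaly masses against control moved from −0.08 to −0.19. The share of called genes that were higher moved from 49.6% to 38.5% in S62A lymphomas against control with limma (2656 up and 4250 down, against 3414 and 3471). Between the lymphoma groups it moved from 27.2% (134 up and 358 down) to 15.9% with library size only (86 and 456) and 12.6% with limma (61 and 422). No paired analysis was possible because the labels give no replicate numbers, and numbers in accession order pair no libraries. Depth limits Glycam1 outside splenomegaly masses, Madcam1 throughout and Ccl19 entirely.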

Other observations

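Genes of follicular helper T cells and germinal centres, the structures in which B cells mature, had 11 of 15 tested members up and 2 down in splenomegaly masses against control, with a median log2 fold change of 2.19, beside 22.9% up, 26.3% down and a median of −0.08 over all genes. Maf, a transcription factor of those T cells and of macrophages, rose from 21.3 to 105 CPM (2.30 ± 0.20, adjusted p = 1.01e-05 by edgeR's quasi-likelihood test), and S1pr2, a receptor that holds cells in the germinal centre, rose from 17.5 to 102 CPM (2.54 ± 0.24, adjusted p = 1.34e-05). Sh2d1a, an adaptor of T and natural killer cells, fell from 227 to 16.9 CPM (−3.75 ± 0.35, adjusted p = 1.33e-05), and Bcl6, the master regulator of germinal centre cells, fell from 202 to 86.5 CPM (−1.22 ± 0.30, adjusted p = 0.00641). Against S62A lymphomas 12 rose and 1 fell, beside 25.6% and 28.6% of all genes. Bcl6 was among those that rose there (0.94 ± 0.30, adjusted p = 0.0221). Against control, Bcl6 also fell in T58A lymphomas (−1.99 ± 0.31) and in S62A lymphomas (−2.16 ± 0.31). Summed plasma cell markers (6 genes) stood at 16850 to 26960 CPM in splenomegaly masses against 255 to 312 CPM in controls, and double-positive thymocyte markers (8 genes) at 308 to 335 against 9189 to 10520 CPM.

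Summed fibroblast markers differed widely within the lymphoma groups, from 486 to 1712 CPM in T58A lymphomas and from 313 to 1417 CPM in S62A lymphomas, and Cxcl13 was lowest in the library with the highest fibroblast sum in both groups. In splenomegaly masses the order was the other way, with Cxcl13 at 982, 701 and 360.3 CPM where the fibroblast sum was 1169, 850.5 and 667 CPM.

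Markers of lymphatic endothelium (4 genes) summed to 2.64 to 3.36 CPM in controls and to 82.4 CPM or more in every diseased library, but the members differed. Prox1 stood at 156 ± 84.3 CPM (SD, n = 3) in S62A lymphomas and 1.26 ± 1.12 CPM in splenomegaly masses. The other markers went the other way. Lyve1, which some macrophages also make, stood at 1.64 ± 1.998 and 38.8 ± 38.0 CPM. Flt4 stood at 1.26 ± 0.368 and 18.8 ± 11.7 CPM, and Reln at 1.09 ± 1.02 and 51.8 ± 15.2 CPM. The sum in S62A lymphomas, 160 CPM on average, was thus mostly Prox1.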
